A study of Zea mays with 42 samples.

Results

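Endosperm is the nutritive tissue of the maize kernel, and its early growth gives way to storage. A set of 8 probe sets of the maize microarray, out of 17555 that measure maize transcripts, was selected on measured signals as early in the endosperm and later low, yet present in other organs. The selection took the probe sets whose mean signal in the endosperm at 10 days after pollination (DAP) was at least 8 times that at 25 DAP, with means under 100 set to 100. It left out those whose highest endosperm mean reached 8 times the highest mean among the ear, leaf, root, silk, stem, stem tip and the 20 and 25 DAP embryos. A probe set is the group of short probes that together measure a transcript. The 8 are Zm.4750.1.S1_at, Zm.17534.1.S1_at, Zm.17534.1.S1_x_at, Zm.17093.1.S1_at, Zm.7164.1.A1_at, ZmAffx.40.1.A1_at, Zm.247.2.A1_at and Zm.2736.1.S1_at. The annotation tables gave a gene name to 1452 probe sets and to 0 of these 8, so no function is given for them here.

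The endosperm arises from the second fertilization event of the ovule. It begins as a syncytium of free nuclei, forms cell walls, passes through a period of mitotic division, and then its central cells replicate DNA without dividing while they fill with starch and with zeins, the storage proteins of the maize kernel. The cells at its base form the transfer layer, which takes up sugars and amino acids from the mother plant. The embryo lies beside it and continues to divide while it lays down oil and globulins. Dividing tissue in the rest of the plant lies in the shoot apex, the young ear, root tips and the base of stem segments.

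The samples came from the inbred line B73 with no treatment. Embryo and endosperm were each taken at 10, 15, 20 and 25 DAP, ear and silk before pollination, and leaf, root, stem and stem tip at the big trumpet period of vegetative growth. Each of the 14 tissues had 3 arrays, which the labels call biological replicates without saying whether they came from separate plants. The p-values therefore measure spread between arrays. The fit pooled the spread within tissues over all 42 arrays. The standard error (SE) of a probe set was thus the same whichever tissue was set against another. The signals are linear intensities of the MAS5 algorithm, and the number of arrays rather than a sequencing depth limited their precision. Because the samples are whole tissues, fewer cells of a type and less RNA per cell cannot be told apart.

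The seed labels were checked against storage genes. The summed signal of 14 zein probe sets was 109851 to 137637 on the 10 DAP endosperm arrays and 216171 to 223105 at 25 DAP, against 972.89 to 1872.70 on the non-seed arrays. Zein signal was also present on embryo arrays, at 22357 to 63320 at 10 DAP and at 52677 on replicate 2 at 15 DAP, where the other 2 arrays read 4343 and 4556. The oleosin gene ole1, whose product coats oil bodies and is abundant in the embryo, read 6318 to 7621 on the 10 DAP endosperm arrays and 16960 to 19533 on those of the embryo, and whether this signal came from embryo or endosperm cells was not tested. The correlation of an array with the other 2 of its tissue averaged 0.930 for the lowest array, root replicate 1, and had a median of 0.991.

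Of the 17555 probe sets, 11 met the 8-fold ratio, and 3 of these were left out by the second limit, which sets the endosperm against the 8 other tissues. Those 3 were Zm.13101.1.A1_at with a 10 DAP endosperm mean of 2006, Zm.6087.1.A1_at with 2139 and Zm.18272.1.A1_at with 899.5, and their means were at most 70.1 in each of the 8 other tissues considered. In the opposite direction, 128 probe sets were at least 8 times higher at 25 than at 10 DAP. The ratio threshold fell within a continuous range of values. Just inside it lay Zm.247.2.A1_at with a ratio of 8.29 and Zm.2736.1.S1_at with 8.01, and just outside it lay Zm.2119.1.A1_at with 7.74 and Zm.10773.1.A1_at with 7.33. The second limit had a wide gap: the members nearest it had a highest endosperm mean 0.748 and 0.541 times their highest mean elsewhere, for Zm.2736.1.S1_at and ZmAffx.40.1.A1_at, and the nearest probe set outside was Zm.18272.1.A1_at at 9.00 times. The selection therefore fixes the difference between 10 and 25 DAP and the highest signal among the 8 other tissues, and these are given below as description without a test. The ratio of 5 members fell under 8 when a single 10 or 25 DAP endosperm array was left out. That of Zm.7164.1.A1_at, 9.53, became 6.08 without 10 DAP replicate 2 and 7.79 without 25 DAP replicate 1. Those of Zm.17093.1.S1_at, Zm.17534.1.S1_x_at and Zm.247.2.A1_at became 7.30, 7.71 and 7.74 without 10 DAP replicate 3, and that of Zm.2736.1.S1_at fell under 8 without any of 4 arrays, to 7.67 at the lowest.

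Across the endosperm stages, most of the decline lay before 15 DAP. Between the means at 10 and 15 DAP the fold was 2.66 to 9.63, with a median of 4.86, and at 15 DAP the members stood at 10.4% to 37.6% of their 10 DAP level. The step from 10 to 15 DAP was the largest of the 3 steps for 6 of the 8. For the remaining pair, Zm.7164.1.A1_at and Zm.2736.1.S1_at, the step from 15 to 20 DAP was larger. From 20 to 25 DAP the means differed by 0.518 to 1.75-fold, and 5 of 8 had a higher mean at 25 than at 20 DAP. Over the 13628 maize probe sets with a 10 DAP endosperm mean of at least 100, the median fold of 10 over 25 DAP was 0.902.

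**Figure D1:**
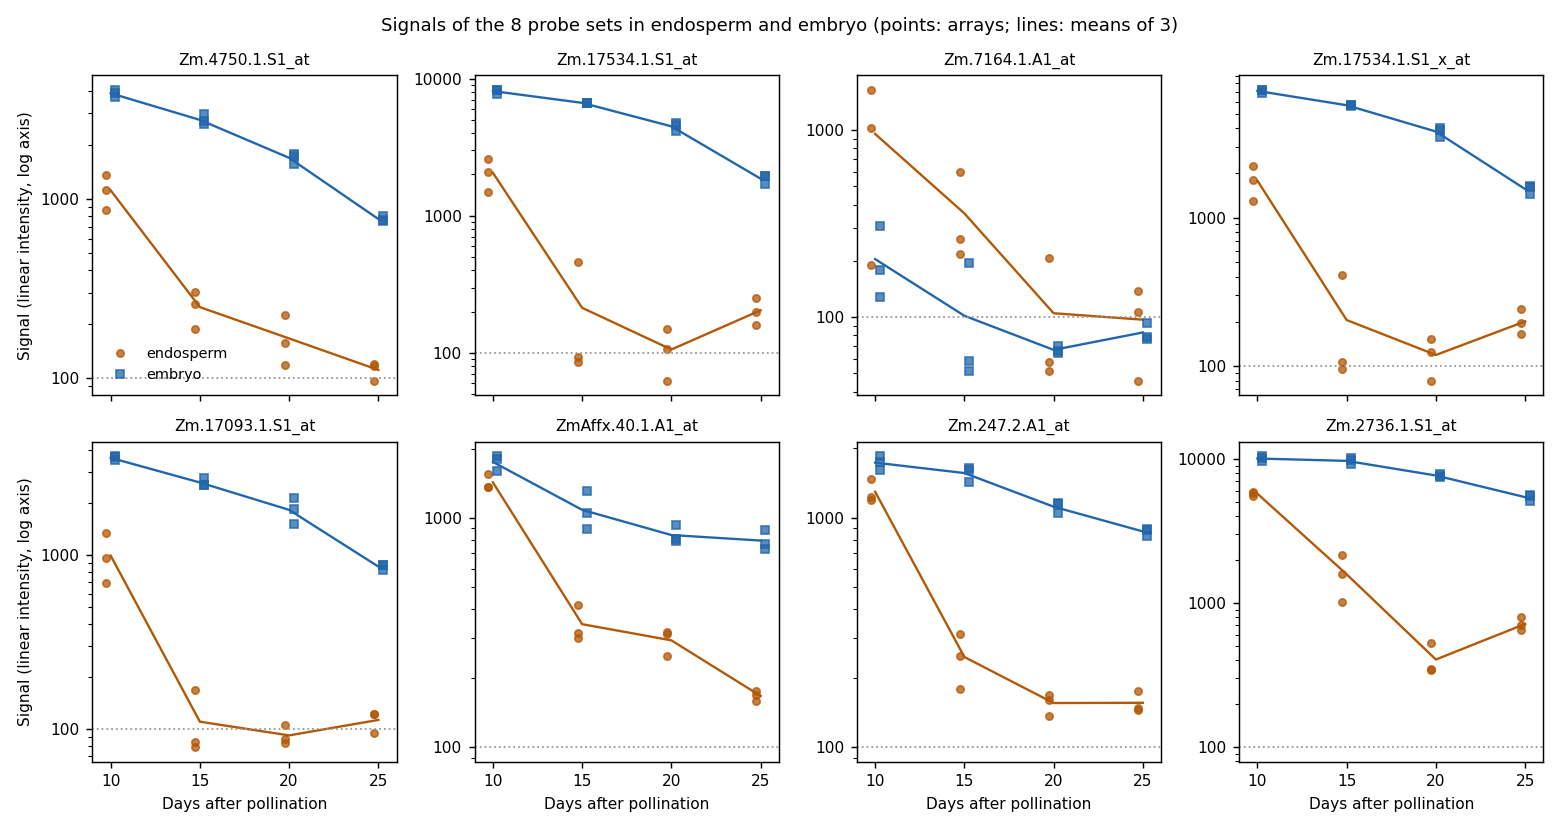
Signal (linear intensity on a log axis) of each of the 8 probe sets against days after pollination, with a point per array for endosperm and embryo, lines through the means of 3 arrays, and a dotted line at 100. The endosperm lies below the embryo at every stage for all except Zm.7164.1.A1_at, and for 6 of 8 the steepest endosperm segment runs from 10 to 15 DAP.

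A group of 4 probe sets had nearly the same course: Zm.4750.1.S1_at, Zm.17093.1.S1_at and the pair of Zm.17534.1. In the endosperm, Zm.17534.1.S1_at read 1485, 2079 and 2603 at 10 DAP, 94.2, 86.6 and 460 at 15 DAP, 63.0, 149 and 106 at 20 DAP, and 253, 161 and 200 at 25 DAP. Every 10 DAP array was above every later one, and replicate 3 at 15 DAP stood apart from the other 2 of its stage. That array also had a log2 ratio of 3′ to 5′ control signal of 1.05, against 1.76 and 1.86 on the other 2, a measure of RNA degradation described further on, whose part in this value was not tested. Its partner Zm.17534.1.S1_x_at shares the target number, and the suffix marks probes that may also match other sequences. The partner followed it with an r of 0.999 over 14 tissue means, so the 2 are not separate evidence. A further probe set of the same number, Zm.17534.2.S1_at, had a 10 over 25 DAP ratio of 5.89 and was not selected.

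Zm.17093.1.S1_at read 688, 959 and 1331 in the 10 DAP endosperm, then 78.6, 83.7 and 168 at 15 DAP, 83.0, 105 and 87.4 at 20 DAP, and 122, 95.5 and 121 at 25 DAP. Its 15, 20 and 25 DAP arrays overlapped one another, near the value of 100 below which means were set to 100. Zm.4750.1.S1_at declined in smaller steps, from 870, 1125 and 1355 to 259, 187 and 301 at 15 DAP, 224, 157 and 119 at 20 DAP, and 116, 97.0 and 120 at 25 DAP. Its 10 DAP arrays lay above all later arrays, and its 15 and 20 DAP arrays overlapped.

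ZmAffx.40.1.A1_at and Zm.247.2.A1_at had little spread among the arrays at 10 DAP. ZmAffx.40.1.A1_at read 1368, 1369 and 1546 at 10 DAP, 314, 417 and 300 at 15 DAP, 317, 249 and 311 at 20 DAP, and 168, 158 and 175 at 25 DAP. It was lower at 25 than at 20 DAP on every array. Zm.247.2.A1_at read 1224, 1192 and 1468 at 10 DAP, 312, 180 and 249 at 15 DAP, 170, 161 and 137 at 20 DAP, and 145, 176 and 148 at 25 DAP, with no further decline after 20 DAP. A neighbouring target of the same number, measured by Zm.247.1.A1_a_at and Zm.247.1.A1_at and annotated as LOC541999, had ratios of 2.02 and 1.69.

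Zm.2736.1.S1_at read 5547, 5869 and 5812 at 10 DAP, 2147, 1016 and 1588 at 15 DAP, 342, 530 and 346 at 20 DAP, and 700, 799 and 652 at 25 DAP. Its stages did not overlap, and all 25 DAP arrays were above all 20 DAP arrays. Zm.7164.1.A1_at was the most variable: its arrays read 189, 1644 and 1027 at 10 DAP, 217, 260 and 599 at 15 DAP, 51.4, 206 and 57.2 at 20 DAP, and 45.8, 106 and 138 at 25 DAP. Replicate 1 at 10 DAP lay below every 15 DAP array.

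The endosperm test of 15 against 20 DAP used none of the arrays in the ratio. It was still not independent of the selection. The step from 15 to 20 DAP is part of the fall that the ratio required. A higher mean at 15 DAP was therefore favoured in advance. Of all probe sets tested, 0.573% were called higher at 15 DAP and 0.840% lower, where a call required an adjusted p under 0.05 in limma, a difference of at least 2-fold and a mean of at least 100. Zm.2736.1.S1_at was called and was 3.81-fold higher at 15 DAP. Its log2 difference was 1.93 ± 0.17 (SE pooled over all tissues, n = 3 arrays per stage), with an adjusted limma p of 2.41e-09. It kept its call in 20 of 20 alternative settings, among them a fit of only the arrays compared, with adjusted limma p up to 9.36e-04. The other 7 had log2 differences of 0.18 to 1.93 and were not called. Zm.7164.1.A1_at had the same difference as Zm.2736.1.S1_at, 1.93, with an SE of 0.77 and an adjusted p of 0.119, and its arrays at the 2 stages did not overlap. Zm.247.2.A1_at had 0.64 ± 0.21 and an adjusted p of 0.0562, also without overlap. The median difference was 0.62 for the 8 and -0.07 for all probe sets. Nothing is read from this contrast, because the selection favoured its direction. The 8 also include both probe sets of the Zm.17534.1 pair, which are not separate evidence.

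In the embryo the members had lower means at each later stage than at 10 DAP. At 15, 20 and 25 DAP the means were 49.8% to 96.3%, 32.7% to 76.2% and 19.9% to 53.9% of the 10 DAP embryo mean. These shares are not set against the endosperm course, which the selection fixed. Zm.17534.1.S1_at read 7770, 8284 and 8241 at 10 DAP, 6646, 6639 and 6662 at 15 DAP, 4560, 4751 and 4138 at 20 DAP, and 1703, 1936 and 1951 at 25 DAP. These stages did not overlap. Zm.2736.1.S1_at read 10190, 10422 and 9609 at 10 DAP, 9196, 10121 and 9784 at 15 DAP, 7926, 7596 and 7518 at 20 DAP, and 5582, 5147 and 5570 at 25 DAP, with overlap between the first 2 stages only.

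Between 10 and 15 DAP in the embryo, 0 of 8 members were called, beside 1.73% of all probe sets called higher and 3.45% lower at 10 DAP. The lowest limma p-values among the members were those of ZmAffx.40.1.A1_at and Zm.4750.1.S1_at. ZmAffx.40.1.A1_at was 1.63-fold higher at 10 DAP with an adjusted limma p of 0.0216, under the required 2-fold, and Zm.4750.1.S1_at was 1.41-fold higher with an adjusted p of 0.140. Between 15 and 20 DAP again 0 of 8 were called, beside 1.44% higher and 2.68% lower. Here the lowest limma p-values among the members were those of Zm.4750.1.S1_at and Zm.247.2.A1_at. Zm.4750.1.S1_at was 1.63-fold higher at 15 DAP with an adjusted p of 0.0385, and Zm.247.2.A1_at was 1.40-fold higher with an unadjusted p of 0.0290 and an adjusted p of 0.127. The members' median log2 differences were 0.40 and 0.51 in these comparisons, and those of all probe sets 0.00 and -0.01.

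The change from 15 to 20 DAP was then compared between the 2 seed tissues as a difference of differences. Of all probe sets, 1.67% were called with a larger excess at 15 DAP in the endosperm and 1.98% in the embryo. Zm.2736.1.S1_at was called: its 15 over 20 DAP difference was 1.93 on the log2 scale in the endosperm and 0.34 in the embryo, and the difference between them was 1.59 ± 0.24 (SE) with an adjusted p of 2.67e-05. It was called in 26 of 26 alternative settings, with values of 1.17 to 2.13. This result is not independent of the selection. The 20 DAP embryo mean of Zm.2736.1.S1_at, 7680, was the highest of the 8 means that the second limit used. The comparison of 15 with 20 DAP in its embryo shares this limit. For the other 7 the difference was -0.36 to 1.61 and was not called. The interval for Zm.17534.1.S1_at ran from -1.25 to 1.38 and that for Zm.4750.1.S1_at from -0.78 to 0.58, so this comparison leaves room for differences of either sign. At 10 to 15 DAP, where the endosperm steps were largest, no such test was made because the 10 DAP endosperm chose the members.

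**Figure D2:**
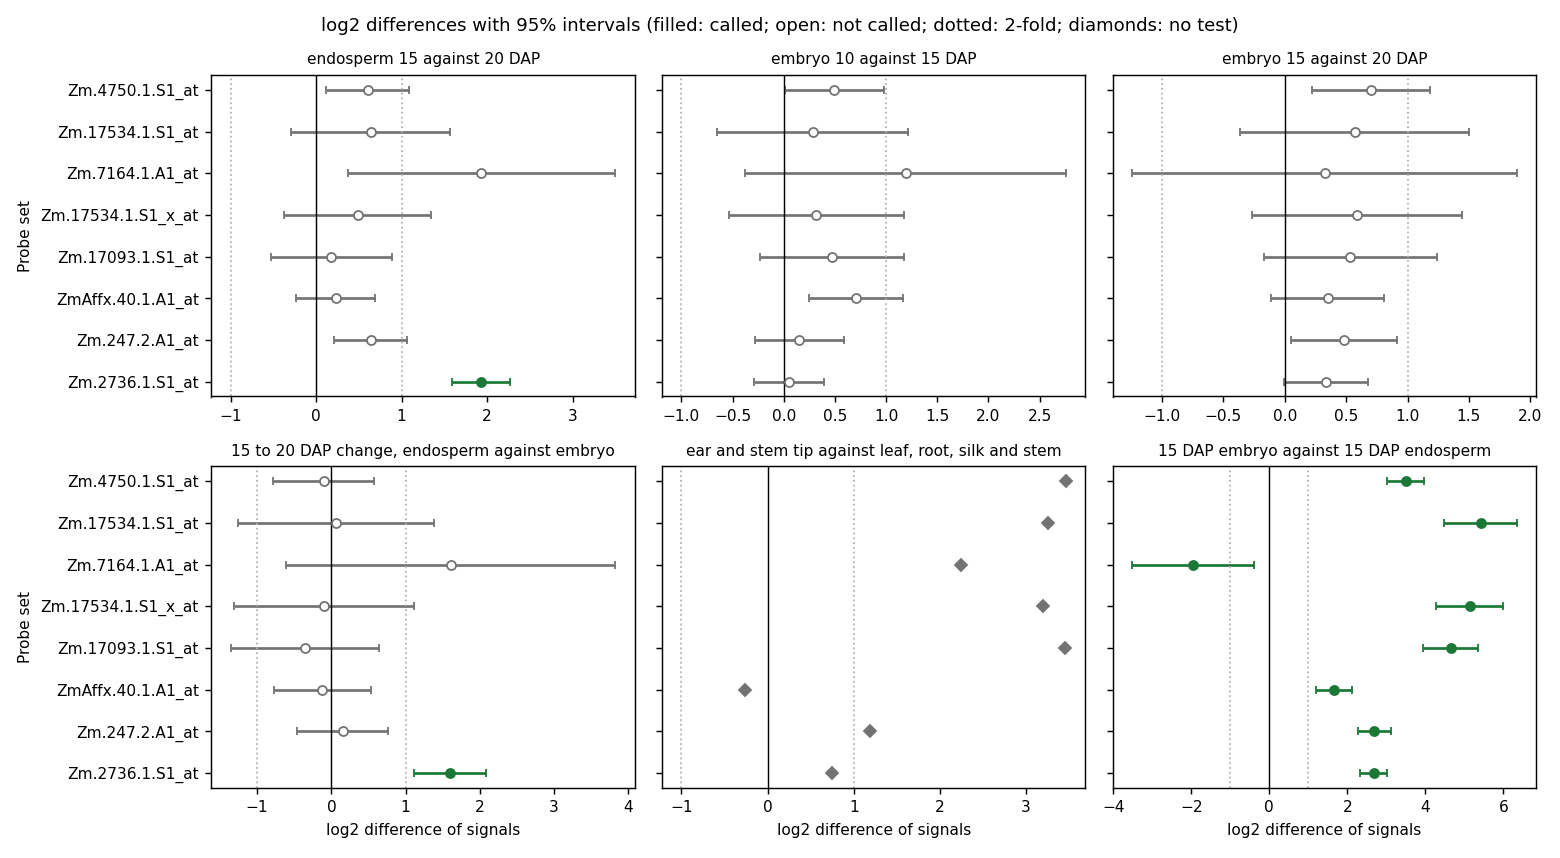
Log2 differences of the 8 probe sets, with bars of 95% intervals from limma, in 6 comparisons. The panel of ear and stem tip against the other 4 organs shows differences only, since the selection used the highest of these means. The panel of embryo against endosperm at the same stage is also a description, since it was chosen after the values were seen. Among the comparisons between stages, Zm.2736.1.S1_at is the probe set with called differences, at 1.93 and 1.59.

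At 15 DAP, after the endosperm decline, the members were set against the embryo of the same stage, a comparison chosen after the values were seen. The selection required a fall in the endosperm and left out probe sets with little signal elsewhere, later embryos included. A higher embryo is therefore partly built in, so the differences are a description and nothing is read from the calls of the members. Of all probe sets 17.5% were called higher in the embryo and 13.9% lower. In the same fit 7 of the members met the requirements of a call as higher in the embryo and 1 as lower. The 7 include both probe sets of the Zm.17534.1 pair, which are not separate evidence. Zm.17534.1.S1_at was 42.8-fold higher in the embryo, a log2 difference of 5.42 ± 0.46 (SE). Zm.17534.1.S1_x_at followed at 35.2-fold, Zm.17093.1.S1_at at 25.2-fold and Zm.4750.1.S1_at at 11.3-fold. The first 3 of these folds rest on 15 DAP endosperm arrays of which some read under 100, and with signals under 100 set to 100 the log2 differences were 5.32, 5.12 and 4.45. Zm.247.2.A1_at, Zm.2736.1.S1_at and ZmAffx.40.1.A1_at were 6.47-, 6.41- and 3.15-fold higher. At 10 DAP the embryo means were 1.23 to 4.01 times the endosperm means for these 7. Without replicate 3 of the 15 DAP endosperm, the array with 460, the value of Zm.17534.1.S1_at became 6.20 and that of Zm.17534.1.S1_x_at 5.82. Spike-in centring, which moved the median of all probe sets from -0.15 to 0.53, raised the value of Zm.17534.1.S1_at to 6.10 and that of ZmAffx.40.1.A1_at from 1.65 to 2.34.

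Zm.7164.1.A1_at was the exception. Its embryo arrays read 58.0, 195 and 51.5 at 15 DAP against 217, 260 and 599 in the endosperm. The difference of -1.95 ± 0.77 on the log2 scale met the requirements of a call. The call was lost when any of 15 DAP embryo replicate 1, embryo replicate 3 or endosperm replicate 3 was left out, with values of -1.69, -1.60 and -1.51, and without replicate 1 or 3 of every tissue, with -1.98 and -1.16. Without replicate 2 the value was -2.72. The call was also lost with spike-in centring, at -1.27, and with signals under 100 set to 100, at -1.37. The highest of its 15 DAP embryo arrays, replicate 2 with 195, was the array with a summed zein signal of 52677, whose part in the result was not tested. At 10 DAP its endosperm mean was 467% of its embryo mean.

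Genes abundant in the embryo were measured on the same endosperm arrays. On the 15 DAP endosperm arrays ole1 read 1715, 1211 and 5616, and replicate 3, the highest of these, was also the highest for Zm.17534.1.S1_at and Zm.17093.1.S1_at. At 20 DAP ole1 read 705, 5723 and 2519, in the same order as Zm.17534.1.S1_at with 63.0, 149 and 106, whereas Zm.4750.1.S1_at had 224, 157 and 119. Other genes abundant in the embryo had another order at 20 DAP, each highest on replicate 3. The globulin genes glb1 and glb2 read 195, 506 and 713 and 184, 201 and 271, and the late embryogenesis gene EMB5 read 147, 173 and 218. At 25 DAP the order was not shared: ole1 read 10053, 11142 and 9768, and Zm.17534.1.S1_at 253, 161 and 200. Over the 12 endosperm arrays, the deviations from stage means on the log2 scale had an r with those of ole1 of 0.83 for Zm.17534.1.S1_at, 0.81 for its partner, 0.62 for Zm.17093.1.S1_at, -0.06 for Zm.4750.1.S1_at and -0.71 for ZmAffx.40.1.A1_at, on arrays that share their scaling. The summed signal of 15 probe sets for late embryogenesis proteins and oleosins was 20506 to 22011 on the 10 DAP endosperm arrays, 21347 to 26575 at 15 DAP, 22793 to 29351 at 20 DAP and 49703 to 54734 at 25 DAP. On the embryo arrays it was 35437 to 39264 at 10 DAP. Of these 15 probe sets, 13 had a mean of at least 100 in the 10 DAP endosperm and 0 were at 0. Not all of these measure embryo RNA. The storage globulin gene glb3 had means of 7478 and 18762 in the 10 and 25 DAP endosperm and 182 in the 25 DAP embryo, and GLB1, annotated as a hemoglobin and taken up by its name, was highest in root. Of the 14 with a 10 or 25 DAP endosperm mean of at least 100, 5 were at least 2 times higher at 25 than at 10 DAP and 0 were at least 2 times lower.

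Beside single genes, the 10 DAP endosperm stood at 37.5% of the embryo for ole1, 8.52% for glb1 and 17.2% for glb2, a pair of globulins, and 11.0% for EMB5, a late embryogenesis protein. For Zm.4750.1.S1_at, Zm.17534.1.S1_at, Zm.17534.1.S1_x_at and Zm.17093.1.S1_at the values were 28.7%, 25.4%, 24.9% and 27.5%. They lay between those of ole1 and the globulins, and the part of embryo RNA in them was not tested. For Zm.2736.1.S1_at, Zm.247.2.A1_at and ZmAffx.40.1.A1_at the endosperm stood at 57.0%, 74.6% and 81.5%, above ole1, glb1, glb2 and EMB5. These genes took different courses in the endosperm. From 20 to 25 DAP the mean of ole1 went from 2982 to 10321 and that of glb1 from 471 to 4857. The mean of glb2 was 219 and 195 there and 16984 in the 25 DAP embryo. Which cells gave the endosperm signal of ole1 and glb1 was not tested.

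**Figure D3:**
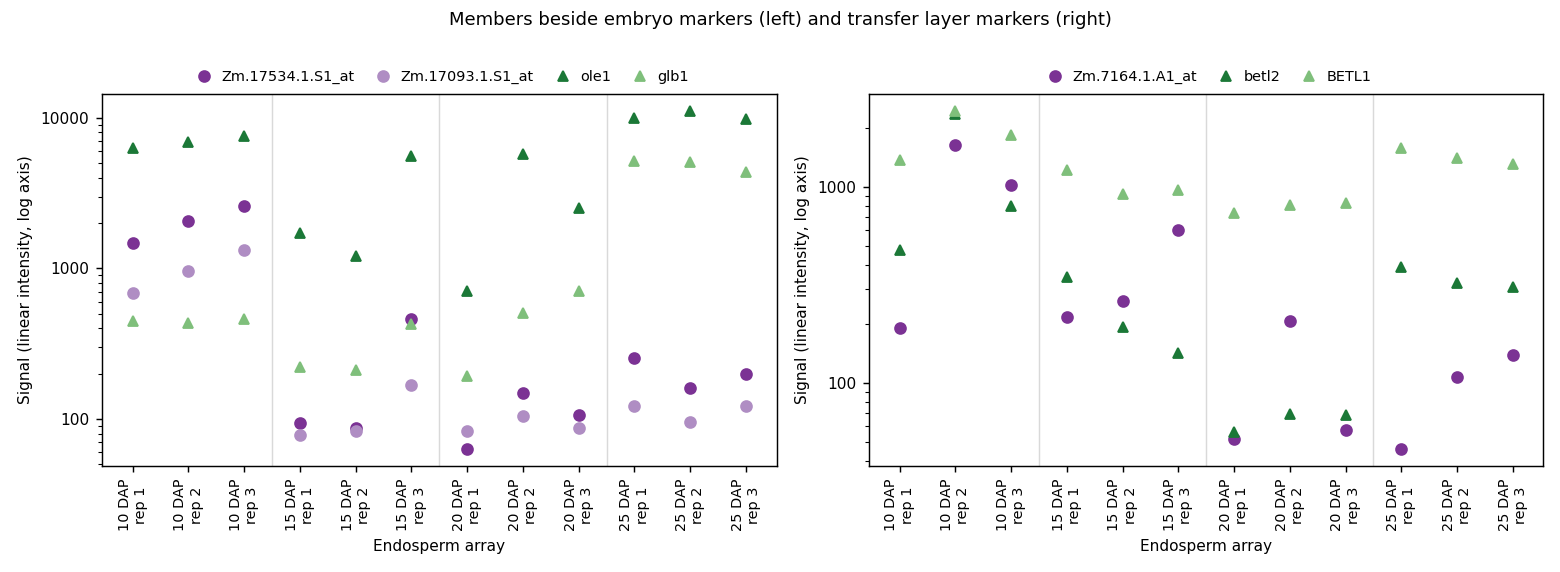
Signals (linear intensity, log axis) on the 12 endosperm arrays, for Zm.17534.1.S1_at and Zm.17093.1.S1_at beside the embryo markers ole1 and glb1 (left) and for Zm.7164.1.A1_at beside the transfer layer genes betl2 and BETL1 (right). The 15 DAP array with an ole1 signal of 5616 is the one with 460 for Zm.17534.1.S1_at, and the 10 DAP arrays of Zm.7164.1.A1_at follow the order of betl2.

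The transfer layer genes betl2 and BETL1 varied among the 10 DAP endosperm arrays in the order of Zm.7164.1.A1_at. Betl2, a small secreted protein of the transfer layer, read 474, 2348 and 799, and BETL1 read 1363, 2442 and 1836, where Zm.7164.1.A1_at read 189, 1644 and 1027. The summed signal of the 21 transfer layer and embryo-surrounding region probe sets was 9375 to 22427 at 10 DAP, 7288 to 9928 at 15 DAP, 5074 to 6862 at 20 DAP and 11745 to 14203 at 25 DAP, and 0 of the 21 were at 0. At 15 DAP the order was not shared: betl2 read 346, 193 and 141, and Zm.7164.1.A1_at was highest on replicate 3. At 20 DAP betl2 read 55.8, 69.7 and 68.1, in the order of Zm.7164.1.A1_at with 51.4, 206 and 57.2, whereas BETL1 read 735, 809 and 831. Over the 12 endosperm arrays, the log2 deviations of Zm.7164.1.A1_at from stage means had an r of 0.39 with those of betl2 and 0.55 with those of ole1. At 25 DAP betl2 read 389, 322 and 308, and Zm.7164.1.A1_at 45.8, 106 and 138, in the reverse order. From 10 to 25 DAP the endosperm means of betl2 and BETL1 went from 1207 to 340 and from 1880 to 1429. Those of betl3 and betl4 rose, from 573 to 2638 and from 216 to 690. BETL1 was not particular to the endosperm, with embryo and endosperm means of 1151 and 1033 at 15 DAP and 952 and 792 at 20 DAP. The part of the transfer layer in these values was not tested.

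Outside the seed, the probe sets of the first group were highest in ear, stem and stem tip. Zm.17534.1.S1_at read 9908, 11933 and 12300 in the ear, 11053, 11262 and 11666 in the stem tip, and 11216, 10336 and 11077 in the stem, with overlapping arrays. It read 585, 3882 and 3115 in the root, 1022, 783 and 1359 in silk, and 80.3 to 104 in leaf, its lowest tissue. Zm.4750.1.S1_at had means of 4270 in the stem tip, 3734 in the ear, 2846 in the stem and 47.0 in leaf. Zm.17093.1.S1_at had means of 4955, 4549, 4427 and 47.3 in the same organs. In these 4 probe sets the 10 DAP endosperm ranked 7th or 8th of the 14 tissues, and the leaf mean lay below the mean of every endosperm stage. For the Zm.17534.1 pair the leaf arrays overlapped those of the 15 and 20 DAP endosperm.

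Root replicate 1, the array least like the others of its tissue, was low for this group and high for others. Zm.17093.1.S1_at read 211, 987 and 971 in the root and Zm.4750.1.S1_at 284, 792 and 527, whereas Zm.247.2.A1_at read 1886, 756 and 1220 there. KIN13 followed the first pattern, with 64.9, 314 and 213.

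The other members had other orders. ZmAffx.40.1.A1_at was highest in root, with 4235, 1387 and 2289, followed by stem and stem tip with means of 2564 and 2343, and its root arrays overlapped those of the stem. Its leaf mean was 1529. Zm.247.2.A1_at was highest in stem with 4464, 2876 and 3429, followed by stem tip and ear with means of 2784 and 2222. Zm.2736.1.S1_at was highest in the 10 DAP embryo with a mean of 10073, where its arrays overlapped those of the 15 DAP embryo, and its non-seed means ran from 1699 in leaf to 5232 in stem tip. The 20 DAP endosperm was its lowest tissue, at 406.

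Zm.7164.1.A1_at was highest in ear and silk. It read 2447, 1324 and 2318 in the ear and 656, 3541 and 1353 in silk, which overlapped. In the stem tip it read 153, 46.2 and 1136, so that replicate 3 carried the tissue mean of 445, and in leaf it read 24.6 to 38.1. Of its 13 pairs of tissues adjacent in rank, 11 had overlapping arrays, against 5 to 9 for the others.

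**Figure D4:**
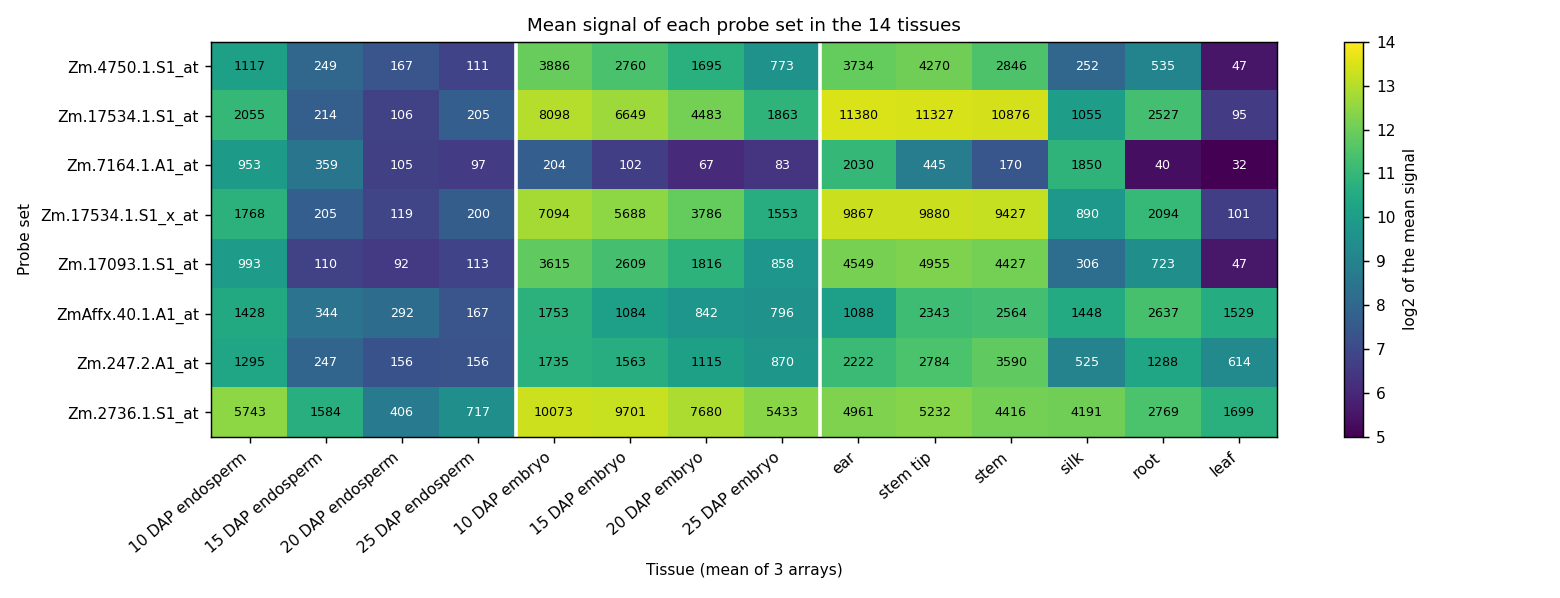
Mean signal (linear intensity, n = 3 arrays) of the 8 probe sets in the 14 tissues, coloured on a log scale and printed in each cell. Leaf is the lowest tissue of 5 probe sets, and the endosperm from 15 DAP on lies below the embryo in every row except that of Zm.7164.1.A1_at.

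To ask how the members stood where apical and floral meristems lie, ear and stem tip were set against leaf, root, silk and stem. The second limit of the selection used the highest of these means, which was that of ear or stem tip for 5 of the 8, so the differences are a description with no test. Zm.4750.1.S1_at was 11.0-fold higher in ear and stem tip (3.46 ± 0.14, log2, SE), Zm.17093.1.S1_at 10.9-fold and Zm.17534.1.S1_at 9.50-fold. Zm.17534.1.S1_x_at, Zm.7164.1.A1_at, Zm.247.2.A1_at and Zm.2736.1.S1_at were 9.19-, 4.73-, 2.28- and 1.68-fold higher, and ZmAffx.40.1.A1_at had a log2 difference of -0.27 ± 0.14. The members' median log2 difference was 2.72, against -0.01 for all probe sets. In the fit across all probe sets 6 of the 8 met the requirements of a call, as did 10.2% of all probe sets as higher and 9.95% as lower, and nothing is read from the 6.

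The arrays of the 2 sides overlapped in all 8. For the first group the stem, one of the 4 comparison organs, was near ear and stem tip, and leaf, root and silk were lower. Without stem the log2 differences of these 4 probe sets were 4.25 to 4.56, and without leaf, where Zm.4750.1.S1_at and Zm.17093.1.S1_at had means under 100, they were 2.03 to 2.49. Without leaf, Zm.247.2.A1_at had 0.92 and Zm.7164.1.A1_at 1.54. The value of Zm.7164.1.A1_at, 2.24 ± 0.47 (SE), moved to 3.02 without replicate 2 of every organ, to 1.56 without replicate 3 and to 1.61 without stem tip replicate 3 alone. The log2 ratio of 3′ to 5′ control signal differed between these organs, with means of 4.57 in ear, 1.74 in stem tip, 5.75 in silk, 3.69 in stem, 1.55 in leaf and 1.53 in root, and its part in the differences was not tested.

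The named genes whose tissue profile was most like each member were looked up among 1393 named probe sets by Pearson's r of log2 means over the 14 tissues, which share their arrays and scaling. These tissues include the endosperm stages that the selection used. For Zm.4750.1.S1_at, Zm.17093.1.S1_at and the Zm.17534.1 pair, the same 5 genes took the first places. They were KIN13, kin11 and kin4, which encode kinesins, the motor proteins of microtubules, cyc3, a cyclin, and nfd101, named as a nucleosome and chromatin assembly factor. The r was 0.940 to 0.979, and over the non-seed tissues alone 0.930 to 0.983. Among the 4 probe sets themselves r was 0.956 to 0.999.

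KIN13 read 156, 186 and 255 in the 10 DAP endosperm, 37.6, 37.3 and 62.2 at 15 DAP and 36.6 to 48.2 at 25 DAP, and had means of 1765 in stem tip, 1196 in stem, 911 in ear and 44.2 in leaf. Cyc3 read 274, 356 and 462 in the 10 DAP endosperm and 38.9, 41.2 and 54.4 at 15 DAP. The 10 over 25 DAP ratio of cyc3 was 3.64 with means under 100 set to 100. Cyc1, cyc2 and cyc3 were left out of the set by the selection in any case, with ratios of 2.42, 1.56 and 3.64.

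**Figure D5:**
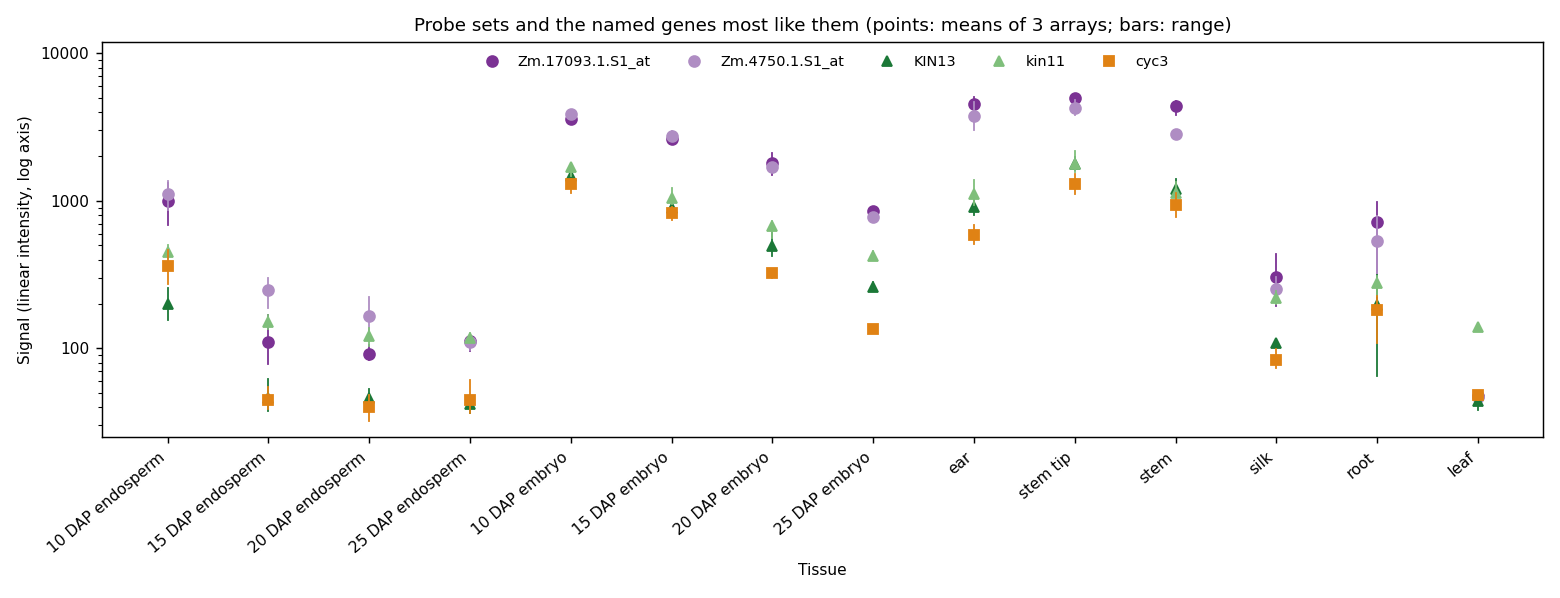
Mean signal (linear intensity on a log axis, n = 3 arrays, bars from the lowest to the highest array) of Zm.17093.1.S1_at and Zm.4750.1.S1_at and of the kinesins KIN13 and kin11 and the cyclin cyc3 in the 14 tissues. The 5 profiles are high in the 10 DAP embryo, ear, stem tip and stem and low in leaf and in the later endosperm, with r of 0.952 to 0.979 between a member and a named gene.

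ZmAffx.40.1.A1_at was most like EF1-A and elfa3, which encode translation elongation factors, with r of 0.951 and 0.924. Over the non-seed tissues alone the r of these genes was 0.771 and 0.376. These genes changed far less: EF1-A had means of 11876 in the 10 DAP and 10099 in the 25 DAP endosperm. Zm.247.2.A1_at was most like the neighbouring probe set Zm.247.1.A1_a_at, at 0.968, and HB133, a homeodomain gene also called rld1, at 0.950. Their r over the non-seed tissues was 0.929 and 0.991. Zm.2736.1.S1_at was most like pco101143a at 0.900 and pdi7, a protein disulfide isomerase, at 0.897. MCM6, a subunit of the replicative helicase, was among its first 5 at 0.893. Over the non-seed tissues these 3 had an r of 0.948, 0.696 and 0.362, and LOC541781, also among the first 5, had -0.330. Zm.7164.1.A1_at had no close match. Its first 5 were phb1, M7, ids1, m29 and m24 at 0.784 to 0.790, and its r with every other member was at most 0.316.

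None of the 8 belonged to a gene list by name, so the named genes of cell division serve only as a side comparison. Their 10 over 25 DAP endosperm ratios were lower than those of the members by the selection. Of 8 DNA replication probe sets, 5 were at least 2 times higher at 10 than at 25 DAP and 0 were at least 2 times lower, with a median ratio of 2.50. MCM7, of the replicative helicase, had a ratio of 5.08 and PCNA, the sliding clamp, 4.06. Of 34 measured cell cycle and spindle probe sets 11 were at least 2 times higher at 10 DAP and 0 lower, and of 7 measured histone probe sets 3 were higher and 0 lower. Of all 14649 measured maize probe sets, 774 were at least 2 times higher at 10 DAP and 1792 lower, and the median ratio was 0.880. Among the other lists, 7 of 45 measured chromatin and DNA methylation probe sets and 4 of 17 of the transfer layer were at least 2 times higher at 10 DAP, against 1 and 3 lower.

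MCM7 read 853, 903 and 845 in the 10 DAP endosperm, 320.5, 239.5 and 242 at 15 DAP, 112 to 147 at 20 DAP and 162 to 177 at 25 DAP. As in 5 of the members, its mean at 25 DAP was above that at 20 DAP.

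The lists were followed through the other comparisons, again as description. Between ear and stem tip and the other organs, 20 of 35 cell cycle and spindle probe sets, 5 of 8 of DNA replication, 2 of 8 histones and 13 of 49 of chromatin and DNA methylation were called higher and 0 of each lower, beside the 10.2% of all probe sets. Lists of other functions were also called there. MADS-box genes encode a family of transcription factors that includes, but is not limited to, those of floral organ identity. Of 32 MADS-box probe sets 17 were called higher and 3 lower. Of 15 for starch synthesis 7 were higher and 0 lower, and of 31 for the cell wall 9 were higher and 6 lower.

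Between the 15 DAP embryo and endosperm, where 17.5% of all probe sets were called higher in the embryo and 13.9% lower, 19 of the 35 cell cycle and spindle probe sets were higher and 2 lower, and 7 of 8 of DNA replication higher and 0 lower. So were 11 of 15 for late embryogenesis and oleosins, with 1 lower, and 12 of 36 aquaporins, with 6 lower, whereas 13 of 14 zein probe sets, 11 of 15 for starch synthesis and 12 of 32 MADS-box were lower. From 15 to 20 DAP in the endosperm, 0.573% of all probe sets were called higher at 15 DAP and 0.840% lower. Of the lists, 1 of 8 DNA replication, 1 of 35 cell cycle, 1 of 21 transfer layer and 3 of 31 cell wall probe sets were higher and 0 of each lower. By contrast 2 of 32 MADS-box, 1 of 15 late embryogenesis and oleosin and 1 of 10 protease probe sets were lower and 0 of each higher. From 10 to 15 DAP in the embryo, beside 1.73% higher and 3.45% lower, 1 DNA replication and 1 cell cycle probe set were called higher at 10 DAP and 0 lower, and 8 chromatin probe sets higher and 1 lower. In the same comparison 6 of 14 zein, 6 of 21 transfer layer, 6 of 32 MADS-box and 5 of 15 starch synthesis probe sets were higher, with 1 of starch synthesis lower. Lower at 10 DAP were 4 of 31 cell wall, 3 of 7 flavonoid pathway, 2 of 36 aquaporin and 2 of 10 protease probe sets, with 0 of each higher. Of 15 for late embryogenesis and oleosins 3 were lower and 1 higher.

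RNA and array measures moved with endosperm stage as well. The log2 ratio of the 3′ to the 5′ control probe set of the elongation factor EF1a, a measure of RNA degradation, averaged 1.11, 1.55, 2.03 and 2.17 from 10 to 25 DAP in the endosperm, and 1.21, 1.66, 1.18 and 1.21 in the embryo. The mean log2 signal of the spike-in controls was 10.5 in the 10 DAP endosperm and 11.1 at 20 and 25 DAP. When this EF1a measure entered the fit, the calls of the members were the same in all 6 comparisons. The part of these measures in the decline from 10 DAP was not tested.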

How the data were processed

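RNA of 14 tissues of maize B73 was measured with 3 Affymetrix arrays each, labelled by 3′ in vitro transcription. The authors deposited a table of intensity values (MAS5 signal on a linear scale, per the labels), 1 column per array; the MAS5 version and scaling target are not given in the sources used here. Of 17734 features, 113 control probe sets were left out of the tests and 17621 were tested, 66 of them reporters. A further table of gene pairs, which held 562 of the features, held none of the members.

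Log2 signals were fitted with limma 3.58.1 in R 4.3.3: a mean per tissue over all 42 arrays, empirical Bayes with an intensity trend, and Benjamini-Hochberg adjustment over all probe sets tested. The test was checked on simulated data. Summaries and plots used Python 3.11.15, numpy 2.4.6, pandas 2.3.3 and matplotlib 3.10.9. The members and gene lists were chosen with earlier results of these data known. Members were named by the 10 over 25 DAP ratio, by membership of a list, by the 3 largest called folds of each comparison and by closeness to a threshold, and with 8 members this named each of them. Array signals, pseudocounts, filters, scalings, covariates and left-out arrays were varied. Promoter and probe sequences were not analysed here.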

Additional observations from a re-analysis of the deposited data

Results flagged for a closer look

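The 15 to 20 DAP change of Zm.2736.1.S1_at differed between the seed tissues by a limma test of the difference itself, 1.593 on the log2 scale. Its endosperm arrays read 2147, 1016 and 1588 at 15 DAP against 342, 530 and 346 at 20 DAP. Its embryo arrays read 9196, 10121 and 9784 against 7926, 7596 and 7518. The second limit of the selection used its 20 DAP embryo mean, so this result is not independent of the selection.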

How the results depend on the processing

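Membership was 12 with means under 50 set to 50, 3 with 200 in place of 100, 75 at a 4-fold ratio, 0 at a 16-fold ratio, 8 with a limit of 4, 16 after quantile normalization, 14 after centring on array medians and 17 on spike-in controls; the 3 scalings kept all 8. Leaving out a replicate or a 10 or 25 DAP endosperm array gave 5 to 11 members; without replicate 3, or 10 DAP endosperm replicate 3 alone, 5 were selected, 4 shared. In the 15 against 20 DAP endosperm comparison 2 members were called after quantile normalization and in a fit of only the arrays compared, the second being Zm.7164.1.A1_at. Without a fold threshold 1 member was called between 10 and 15 DAP and 1 between 15 and 20 DAP in the embryo. The single member lower in the 15 DAP embryo became 0 with spike-in centring and with signals under 100 set to 100, and 0 to 1 when arrays were left out. Causes were not tested.

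Every direction that turned was of an uncalled difference. In the comparison of changes, Zm.4750.1.S1_at and Zm.17534.1.S1_x_at became 0.16 and 0.13 after quantile normalization and 0.20 and 0.20 after spike-in centring, ZmAffx.40.1.A1_at became 0.18 after spike-in centring, and Zm.17534.1.S1_at became -0.024 with a pseudocount of 32 and -0.058 with signals under 100 set to 100. ZmAffx.40.1.A1_at became 0.036 between ear and stem tip and the other organs after spike-in centring. Leaving out arrays gave ranges between 15 and 20 DAP in the endosperm of -0.15 to 1.35 for Zm.17534.1.S1_at, -0.19 to 1.07 for Zm.17534.1.S1_x_at, -0.21 to 0.43 for Zm.17093.1.S1_at and -0.032 to 0.37 for ZmAffx.40.1.A1_at. In the embryo it gave -0.32 to 0.67 for Zm.7164.1.A1_at. For the comparison of changes it gave -0.43 to 0.14 for Zm.4750.1.S1_at, -0.72 to 0.73 for Zm.17534.1.S1_at, -0.78 to 0.44 for Zm.17534.1.S1_x_at, -0.58 to 0.17 for ZmAffx.40.1.A1_at and -0.054 to 0.40 for Zm.247.2.A1_at.

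Spike-in centring moved the median log2 difference of all probe sets from -0.15 to 0.53 between the 15 DAP embryo and endosperm, from -0.05 to 0.25 in the comparison of changes, from -0.01 to 0.29 between ear and stem tip and the other organs and from -0.01 to -0.16 between 15 and 20 DAP in the embryo; centring on array medians moved the first to -0.35. Of all probe sets, in higher and lower calls without a fold threshold, 101 and 148 became 616 and 836 in the endosperm, 304 and 608 became 1580 and 2159 and 253 and 473 became 1259 and 1413 in the embryo, 295 and 349 became 619 and 706, 1795 and 1753 became 5720 and 5071, and 3078 and 2456 became 5221 and 5350. Spike-in centring gave 67 lower, 399 lower, 123 higher, 69 lower, 2713 higher, and 5447 higher with 972 lower in these comparisons, and quantile normalization 203 higher in the first. Leaving out replicate 3 gave 82 lower in the first and 166 higher and 145 lower in the comparison of changes, and replicate 2 gave 179 lower in the latter. The share of calls that were higher moved from 40.6% to 61.0% between 15 and 20 DAP in the endosperm (57.5% after quantile and 52.0% after median centring), from 33.3% to 46.0% and from 34.8% to 16.3% in the 2 embryo comparisons, from 45.8% to 83.5% in the comparison of changes, from 50.6% to 68.1% between organs, and from 55.6% to 84.9% between 15 DAP embryo and endosperm (44.1% after median centring). Same-numbered arrays did not deviate together (17 of 72 pairs had r over 0.1, median 0.01), and a replicate block left the members called at 1, 0, 0, 1, 6 and 7 higher, with 1 lower in the last comparison. Signals near 100 limit the later endosperm stages.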
